A study of Mus musculus with 5 samples.

Results

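The 10 genes Ezh1, Ezh2, Suz12, Eed, Bmi1, Bap1, Asxl1, Asxl2, Kdm6a and Kdm6b were taken by name from a deposited table of 34240 features, and all 10 were found. They encode subunits of the Polycomb repressive complexes, the partners of the Polycomb deubiquitinase and the demethylases of histone H3 lysine 27. RNA sequencing levels were compared between 2 libraries of acute myeloid leukaemia (AML) cells sorted for Mac, Gr1 and B220 and 3 libraries of normal myeloid cells sorted for Gr1 and Mac1. All libraries came from BALB/c mice whose labelled age was 10 to 12 months. The leukaemia had been induced by CNTRL-FGFR1, in which the FGFR1 kinase is fused to centriolin, a protein of the centrosome. AML cells had bone marrow and spleen as their tissue and normal cells bone marrow alone, so that tissue, the B220 sort and the leukaemia cannot be told apart. The labels give no treatment and no genetic change of the normal mice, and leave unsaid whether each library was made from its own animal. All p-values therefore measure the spread between these libraries, which may be technical.

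Polycomb proteins keep genes silent through marks on histones. Polycomb repressive complex 2 (PRC2) methylates lysine 27 of histone H3 with EZH2 or its paralogue EZH1 as the enzyme, and needs SUZ12 and EED for that activity. EZH2 is typical of dividing cells and EZH1 of resting and differentiated ones. Polycomb repressive complex 1 (PRC1) ubiquitinates histone H2A with a RING subunit paired to a PCGF subunit, of which BMI1 is the best known in blood because it sustains self-renewal of haematopoietic and leukaemic stem cells. BAP1 removes that ubiquitin together with ASXL1 or ASXL2, and KDM6A and KDM6B remove methyl groups from H3 lysine 27. In human myeloid neoplasms EZH2, ASXL1 and KDM6A are recurrent sites of loss-of-function or truncating mutations.

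Of the 10 genes, Bmi1 was higher and Kdm6b was lower in AML cells, and the other 8 did not pass the test. Levels are RPKM, reads scaled by exon length and by the number of mapped reads. The test was limma on log2(RPKM + 1) over the 10166 genes that reached 1 RPKM in 2 or more libraries, with Benjamini-Hochberg adjustment over all of them and a threshold of 0.05. Of all tested genes 31.0% passed in either direction, 19.3% higher and 11.8% lower in AML cells, so 2 of 10 is not above the background. The median log2 fold change of the 10 genes was -0.08, against 0.12 over all tested genes. The groups did not overlap for 1 gene that was higher in AML cells (Bmi1) and 3 that were lower (Ezh1, Asxl1 and Kdm6b), where 57.0% of all tested genes did not overlap, 34.8% in the higher and 22.1% in the lower direction. Fold changes on the log2(RPKM + 1) scale understate the change of low genes.

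The sequence before the annotated start is shown for Bmi1, the gene that rose, and for the paralogues Ezh2 and Ezh1, whose ratio separated the groups. Each run holds the 250 bases upstream of the RefSeq start on the GRCm38.p6 assembly, read in the direction of the gene. Capitals in Bmi1 mark the E-box letters CACGTG and the GC box letters GGGCGG, and in Ezh2 the CCAAT letters, on either strand.
Bmi1, chr2:18676768-18677017, plus strand: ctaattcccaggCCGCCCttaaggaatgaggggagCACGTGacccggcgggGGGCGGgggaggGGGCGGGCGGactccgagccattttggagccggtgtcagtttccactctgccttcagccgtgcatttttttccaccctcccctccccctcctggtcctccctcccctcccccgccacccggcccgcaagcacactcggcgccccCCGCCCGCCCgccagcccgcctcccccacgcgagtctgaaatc
Ezh2, chr6:47595031-47595280, minus strand: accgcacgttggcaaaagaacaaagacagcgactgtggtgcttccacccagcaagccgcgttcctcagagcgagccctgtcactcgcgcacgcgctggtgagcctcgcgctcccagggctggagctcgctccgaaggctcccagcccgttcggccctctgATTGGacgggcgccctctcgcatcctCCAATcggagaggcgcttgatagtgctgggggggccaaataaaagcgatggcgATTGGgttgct
Ezh1, chr11:101226464-101226713, minus strand: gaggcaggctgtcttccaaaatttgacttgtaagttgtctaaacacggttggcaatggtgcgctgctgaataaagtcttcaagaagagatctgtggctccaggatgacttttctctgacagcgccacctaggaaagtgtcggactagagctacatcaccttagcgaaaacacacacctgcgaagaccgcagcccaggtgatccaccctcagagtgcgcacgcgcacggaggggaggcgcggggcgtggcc

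The Bmi1 window held 1 E-box and 6 GC box matches, some of the latter overlapping, and the Ezh2 window held 3 CCAAT matches. The Ezh1 window held none of these letters. The GC content was 70.4% for Bmi1, 63.6% for Ezh2 and 55.2% for Ezh1. A search of both strands over windows of 300 bases, which add the first bases of the transcript, found CACGTG in 4 of 9 members with a RefSeq window, against 7.15% of 32851 promoters. GGGCGG was in 6 of 9 (35.7% of all promoters) and CCAAT in 3 of 9 (37.4%). The letters TTTGGCGC, one form of the E2F motif, were in the Ezh2 window alone among the 9, from base 4 of the transcript, and in 0.514% of all promoters. Kdm6b was not in the promoter table. The 32851 promoters were not matched to the members in GC content or level, so these shares do not test enrichment. A match is a description of these letters and not evidence of binding.

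None of the 4 PRC2 members, Ezh2, Ezh1, Suz12 and Eed, passed the test, and of these 4 only Ezh1 had groups that did not overlap. Ezh2 (chromosome 6, 47480273 to 47545340, mm9) stood at 27.11 and 30.79 RPKM in AML libraries 1 and 2, against 23.29, 27.98 and 15.48 RPKM in normal libraries 1 to 3. The AML libraries were near the top of the normal range, and normal library 2 lay between them. The difference missed the threshold, with a log2 fold change of 0.40 and SE of 0.29 (limma, Benjamini-Hochberg adjusted p = 0.325). Ezh1 (chromosome 11, 101052429 to 101087777) stood at 6.8 and 3.6 RPKM in AML libraries, against 12.0, 10.7 and 7.3 RPKM in normal libraries. Both AML libraries were below every normal library, although AML library 1 was close to normal library 3. The log2 fold change of Ezh1 was -0.85 (SE 0.32) and missed the threshold (limma adjusted p = 0.086, unadjusted p = 0.034). With 1 library left out, Ezh1 lay between -1.23 and -0.47. It passed without normal library 3 (-1.04, limma adjusted p = 0.021) and in none of the other 4 such fits, the smallest change being that without AML library 2 (-0.47, limma adjusted p = 0.44).

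Within each library Ezh2 outweighed Ezh1, and did so by more in AML cells. The ratio of Ezh2 to Ezh1 RPKM was 3.99 and 8.55 in AML libraries, against 1.94, 2.61 and 2.12 in normal libraries. It averaged 6.27 ± 3.23 (SD, n = 2) in AML cells and 2.23 ± 0.349 (SD, n = 3) in normal cells, with no overlap. A ratio within a library does not change with the scaling between libraries. The log2 ratio was higher by 1.40 in AML cells, with p = 0.2 in a two-sided exact permutation test, the smallest p that 10 splits of 2 against 3 allow, so the design cannot reach 0.05. The log2 difference was 1.95 without AML library 1 and 0.85 without AML library 2. The summed level of both enzyme genes was 33.9 and 34.4 RPKM in AML libraries, against 35.3, 38.7 and 22.8 RPKM in normal libraries, and overlapped. Ezh1 made up 20.1% and 10.5% of that sum in AML libraries, against 34.0%, 27.7% and 32.0% in normal libraries.

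**Figure D1:**
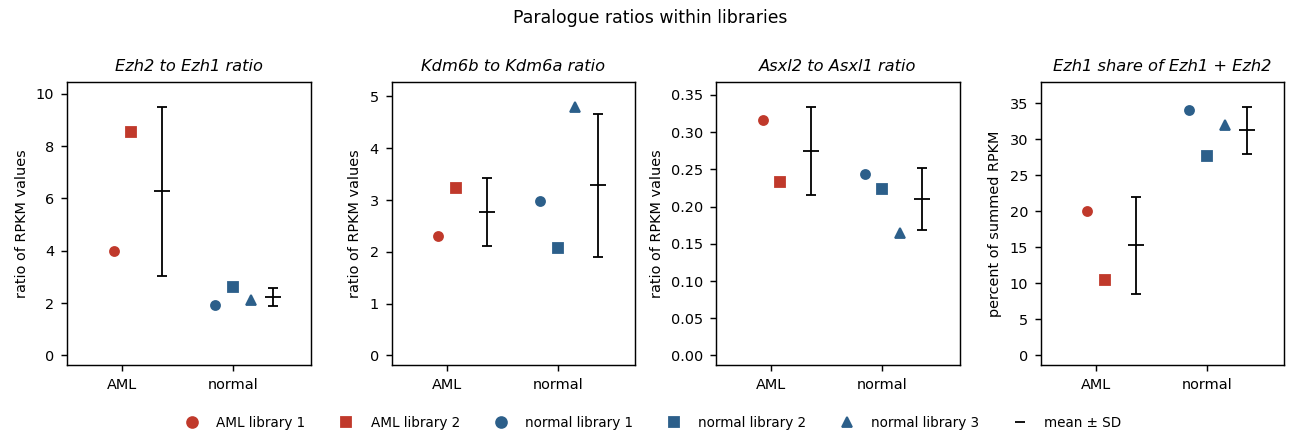
Ratios of RPKM values of paralogous genes within each library, and the share of Ezh1 in the summed Ezh1 and Ezh2 level in percent; points are libraries and bars the mean ± SD (n = 2 AML, n = 3 normal). The Ezh2 to Ezh1 ratio is 3.99 and 8.55 in AML libraries and at most 2.61 in normal ones, whereas the Kdm6b to Kdm6a and Asxl2 to Asxl1 ratios overlap.

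Suz12 (chromosome 11, 79806608 to 79847625), the zinc finger subunit of PRC2, was measured at 26.1 and 18.5 RPKM in AML libraries, against 22.9, 25.4 and 16.7 RPKM in normal libraries. Eed (chromosome 7, 97103166 to 97129493), the subunit that reads the methyl mark, was measured at 23.0 and 24.2 RPKM in AML libraries, against 25.3, 30.1 and 22.8 RPKM in normal libraries. Both genes overlapped between the groups, with Suz12 in AML library 1 above every normal library. Their log2 fold changes were 0.04 (SE 0.28) and -0.13 (SE 0.23), with limma adjusted p = 0.93 and 0.69. The sign of Suz12 turned under other scalings.

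Proliferation markers were set beside Ezh2, and 7 of the 11 were higher and 2 were lower in AML cells, against 19.3% and 11.8% of all tested genes. The higher ones were Mcm2, Mcm3, Mcm5, Mcm7, Pcna, E2f1 and Cdk1. Ccnb1 and Ccna2 were lower, and Mki67 and Top2a did not pass. The summed level of the 11 markers was 829 and 583 RPKM in AML libraries 1 and 2. In normal libraries 1 to 3 it was 520, 502 and 364 RPKM. Both this sum and Ezh2 were lowest in normal library 3. Within AML cells the order differed, as the sum was higher in library 1 and Ezh2 in library 2 (27.11 and 30.79 RPKM). Normal libraries 1 and 2 differed in order as well, with Ezh2 at 23.29 and 27.98 RPKM. The part of proliferation in the level of Ezh2 was not tested.

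Bmi1 (chromosome 2, 18598645 to 18608256), a PCGF subunit of canonical PRC1, was the member that rose. It stood at 6.21 and 6.72 RPKM in AML libraries, against 3.26, 4.02 and 2.92 RPKM in normal libraries. Every AML library was above every normal library. Means were 6.47 ± 0.361 RPKM (SD, n = 2) in AML cells and 3.4 ± 0.563 RPKM (SD, n = 3) in normal cells, a 1.90-fold difference. On the log2 scale Bmi1 was higher by 0.77 with SE 0.22 (limma, Benjamini-Hochberg adjusted p = 0.037). The direction was the same under all 15 alternatives, but the adjusted p passed under 7 of them and ranged up to 0.19. It was lost without any one of normal library 1 (0.12), normal library 2 (0.088), AML library 1 (0.11) or AML library 2 (0.18), and under 2 of the other scalings.

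Bmi1 had the lowest level of the 10 genes in normal cells. The 3 tested genes with the profile most like that of Bmi1 over the 5 libraries, by Euclidean distance between centred log2(RPKM + 1) values, were AI597468 (distance 0.051), Pwwp2b (0.086) and 2610015P09Rik (0.092). AI597468 stood at 6.83 and 7.10 RPKM in AML libraries, against 3.5, 4.49 and 3.18 RPKM in normal libraries. The likeness rests on 5 libraries.

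Kdm6b (chromosome 11, 69212010 to 69227177), an H3 lysine 27 demethylase that is induced in inflammatory macrophages, was the member that fell. It stood at 13.8 and 11 RPKM in AML libraries, against 31.5, 22.5 and 28.3 RPKM in normal libraries. The highest AML library was well below the lowest normal one. Means were 12.4 ± 1.98 RPKM (SD, n = 2) in AML cells and 27.4 ± 4.56 RPKM (SD, n = 3) in normal cells, a 2.21-fold lower level. On the log2 scale the change of Kdm6b was -1.08 with SE 0.25 (limma, Benjamini-Hochberg adjusted p = 0.017), and it passed under 11 of 15 alternatives, among them all other scalings. The call was lost without normal library 1 (adjusted p = 0.061), AML library 1 (0.058) or AML library 2 (0.14).

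All 7 monocyte and macrophage markers were lower in AML cells than in normal cells, where 11.8% of all tested genes were lower and 19.3% higher. Their summed levels were 24.9 and 30.2 RPKM in AML libraries against 651, 448 and 412 RPKM in normal libraries. Klf4 and Irf8 passed the filter only through the normal libraries. None of these 7 markers was at 0 in AML cells. All 6 mature neutrophil markers were lower as well, with sums of 1207 to 1339 RPKM in AML libraries and 4450 to 4651 RPKM in normal libraries, and all 4 granulocyte precursor markers were higher (9606 to 10586 against 258 to 376 RPKM). The part of these cell types in the level of Kdm6b was not tested, and in bulk libraries fewer cells of a type and less RNA per cell cannot be told apart. The genes with the profile most like that of Kdm6b were Iqsec1 (distance 0.078), Fndc3b (0.13) and Zbtb42 (0.17). Iqsec1 stood at 13.0 and 10.5 RPKM in AML libraries, against 28.5, 21.8 and 26.1 RPKM in normal libraries.

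Kdm6a (X chromosome, 17739701 to 17857062), the other demethylase and a subunit of the MLL3 and MLL4 complexes, was measured at 6.0 and 3.4 RPKM in AML libraries, against 10.6, 10.8 and 5.9 RPKM in normal libraries. Normal library 3 was lower than AML library 1, so the groups overlapped. The log2 fold change was -0.82 (SE 0.34) and missed the threshold (limma adjusted p = 0.11, unadjusted p = 0.046). Without normal library 3 it passed at -1.08 (limma adjusted p = 0.015), and in the other 4 fits without 1 library it did not, being at -0.49 without AML library 2 (limma adjusted p = 0.49). Its Y-linked paralogue Uty, with which reads can be shared, was measured at 2.9 and 2.3 RPKM in AML libraries, against 3.2, 3.5 and 1.2 RPKM in normal libraries, and did not pass (limma adjusted p = 0.93). The Y-linked gene Ddx3y was transcribed in every library, at 10.8 and 10.1 RPKM in AML libraries against 13.8, 19.2 and 7.6 RPKM in normal libraries, and Xist was listed at 0 in all 5. The ratio of Kdm6b to Kdm6a was 2.30 and 3.24 in AML libraries, against 2.97, 2.08 and 4.80 in normal libraries. The groups overlapped (log2 difference -0.18, two-sided exact permutation p = 1), and the sign turned without AML library 1 (0.063) or normal library 3 (0.13).

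None of the deubiquitinase genes passed the test. Bap1 (chromosome 14, 32064675 to 32073115), the catalytic subunit, was measured at 14.6 and 13.3 RPKM in AML libraries, against 13.6, 14.9 and 14.1 RPKM in normal libraries. The log2 fold change of Bap1 was -0.02 (SE 0.21, limma adjusted p = 0.94). Asxl1 (chromosome 2, 153171581 to 153229743) was measured at 27.8 and 27.5 RPKM in AML libraries, against 33.3, 31.7 and 31.1 RPKM in normal libraries. Both AML libraries were below all normal ones, but by little, and the log2 difference of -0.20 with SE 0.21 missed the threshold (limma adjusted p = 0.48). Asxl2 (chromosome 12, 3426857 to 3506852) was measured at 8.8 and 6.4 RPKM in AML libraries, against 8.1, 7.1 and 5.1 RPKM in normal libraries, with groups that overlapped (log2 fold change 0.15, SE 0.27, limma adjusted p = 0.69). The ratio of Asxl2 to Asxl1 was 0.317 and 0.233 in AML libraries, against 0.243, 0.224 and 0.164 in normal libraries, and overlapped as well (two-sided exact permutation p = 0.4). A p that misses the threshold does not show that these levels were alike.

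**Figure D2:**
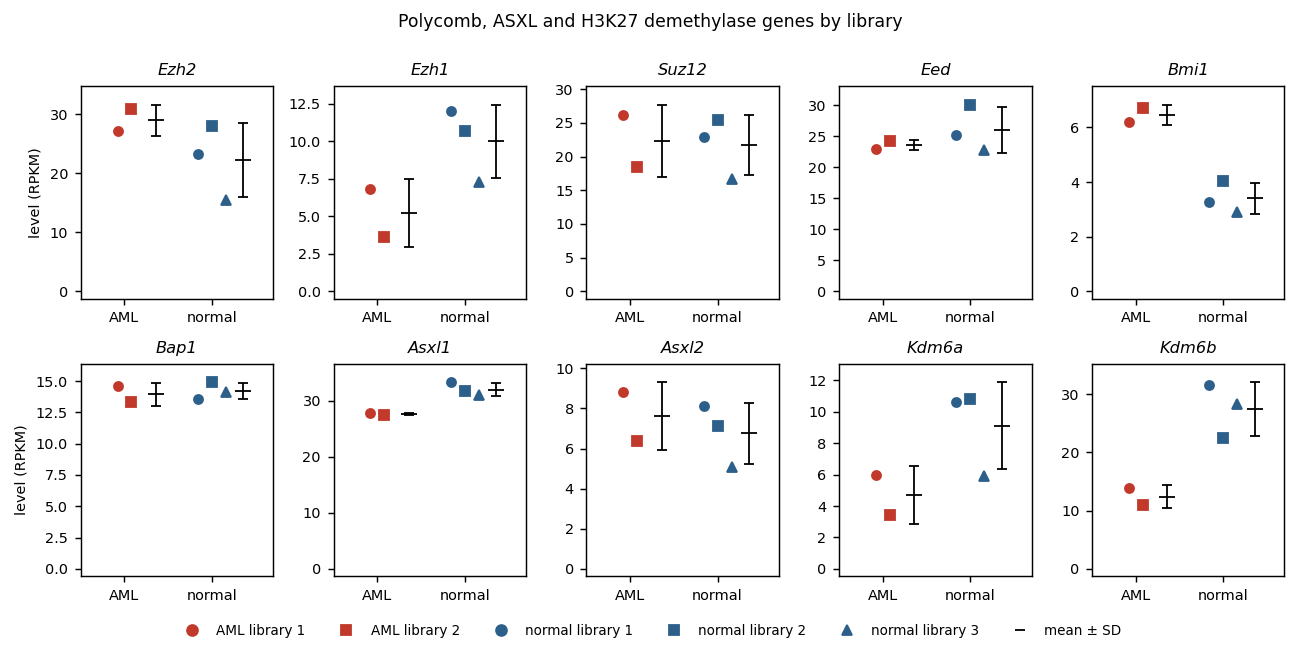
Level of each of the 10 genes in RPKM (vertical axis, its scale set per gene) in 2 AML and 3 normal libraries; points are libraries and bars the mean ± SD. Bmi1 lies higher in both AML libraries (6.21 and 6.72 RPKM) and Kdm6b, Ezh1 and Asxl1 lie lower than in every normal library, and the other 6 genes overlap.

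The order of levels, which RPKM allows between genes, was as follows. In AML cells it ran Ezh2 (mean 28.95 RPKM), Asxl1 (27.65), Eed (23.6), Suz12 (22.3), Bap1 (13.95), Kdm6b (12.4), Asxl2 (7.6), Bmi1 (6.47), Ezh1 (5.2) and Kdm6a (4.7). In normal cells it ran Asxl1 (32.0), Kdm6b (27.4), Eed (26.1), Ezh2 (22.3), Suz12 (21.7), Bap1 (14.2), Ezh1 (10.0), Kdm6a (9.1), Asxl2 (6.77) and Bmi1 (3.4). Neighbours whose library ranges did not overlap were Asxl1 and Eed, Suz12 and Bap1, and Kdm6b and Asxl2 in AML cells. In normal cells they were Suz12 and Bap1, Bap1 and Ezh1, and Asxl2 and Bmi1. All other neighbours overlapped. Asxl1 was above 80.2% of tested genes in its mean over all libraries and Bmi1 above 29.5%.

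Levels of these genes also differed between libraries of the same group. Normal library 3 was the lowest normal library for 8 of 10 genes, against 47.4% of all tested genes, and AML library 2 was below AML library 1 for 7 of 10, against 59.3%. The median log2 difference of the 10 genes was -0.38 between normal library 3 and the mean of normal libraries 1 and 2, and -0.21 between AML libraries 2 and 1. Over 4926 tested genes with exon length above the median of 3620.5 bases, where 8 of the 10 lie, these differences were -0.24 and -0.25, and over the 4926 shorter genes they were 0.12 and 0. Removing a trend with exon length, an alternative chosen after seeing the data, left Bmi1 at 0.68 (limma adjusted p = 0.038) and Kdm6b at -0.97 (limma adjusted p = 0.023), and Ezh1 then passed as well (-0.73, limma adjusted p = 0.040). Summed erythroid markers were 148 and 170 RPKM in AML libraries, against 2214, 1450 and 167 RPKM in normal libraries, and eosinophil and basophil markers 112 and 232 RPKM against 637, 648 and 12.2 RPKM. Both sums were higher in normal libraries 1 and 2 than in normal library 3, as were 8 of the 10 genes, among them Ezh1 and Kdm6a. In AML cells both sums were higher in library 2 than in library 1, whereas Ezh1 and Kdm6a were lower. The part of these cell types in the levels of the 10 genes was not tested.

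**Figure D3:**
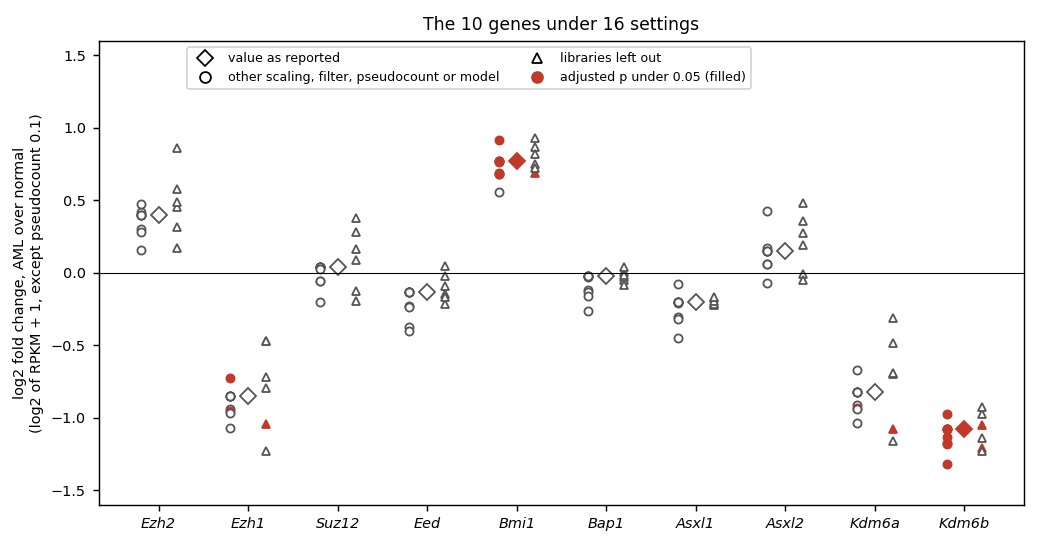
Log2 fold change of AML over normal (vertical axis) for each of the 10 genes as reported (diamonds), under other scalings, filters, pseudocounts or models (circles) and with libraries left out (triangles); filled red symbols have an adjusted p under 0.05. Bmi1 stays above 0 and Kdm6b, Ezh1 and Kdm6a stay below 0 under all 16 settings, whereas Suz12, Eed, Bap1 and Asxl2 lie on both sides of 0.

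The wider machinery was covered by 8 lists holding 67 further genes, of which 59 passed the filter on low values. Of these 59, 9 were higher and 5 lower in AML cells, 23.7% in all, below the background of 31.0%. Their median log2 fold change was 0.03. In none of the 8 lists did every tested gene pass. The direction of each of the 14 calls was kept under every alternative that tested the gene, but only that of Mtf2 passed in all 5 fits that leave out a library.

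Among PRC2 genes no core subunit passed. Of 6 tested genes on the accessory list Mtf2 was higher and Phf1 was lower, against 19.3% and 11.8% of all tested genes. The other 4 on that list, Jarid2, Aebp2, Phf19 and Tceb3, did not pass (limma adjusted p from 0.058 to 0.70). Rbbp4, a histone chaperone shared with other complexes, was measured at 31.5 ± 9.97 RPKM (SD, n = 2) in AML cells and 27.8 ± 7.49 RPKM (SD, n = 3) in normal cells (limma adjusted p = 0.71). Mtf2, a Polycomb-like protein that recruits PRC2 to CpG islands, stood at 40.14 and 52.88 RPKM in AML libraries, against 9.70, 12.80 and 13.79 RPKM in normal libraries. It was 3.84-fold higher (log2 fold change 1.86, SE 0.25, limma adjusted p = 0.0029). Its paralogue Phf1 stood at 12.3 and 17.5 RPKM in AML libraries, against 26.1, 32.5 and 57.4 RPKM in normal libraries, a log2 fold change of -1.26 (SE 0.37, limma adjusted p = 0.040). The call of Phf1 was lost without normal library 2 or either AML library (limma adjusted p up to 0.18). The ratio of Mtf2 to Phf1, formed after their values were seen, was 3.26 and 3.02 in AML libraries, against 0.372, 0.394 and 0.240 in normal libraries.

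Of 8 RING and PCGF genes Bmi1, Pcgf1 and Pcgf6 were higher and 0 were lower by limma, against 19.3% and 11.8% of all tested genes. At an unadjusted limma p under 0.05, 2 were lower, Rnf2 and Pcgf5, where 4463 of all 10166 tested genes reached that p in either direction. The count of higher genes was 1 without normal library 2 or AML library 1 and 0 without AML library 2. Of all tested genes 9.61% were higher without normal library 2. The count of lower genes was 2 under quantile normalization, without normal library 3 and with the exon length trend removed. In these settings 14.1%, 21.2% and 16.8% of all tested genes were lower. Pcgf1, which replaces BMI1 in a variant complex with KDM2B and BCOR, stood at 22.74 and 48.63 RPKM in AML libraries, against 5.56, 7.39 and 11.74 RPKM in normal libraries (log2 fold change 1.95, SE 0.41, limma adjusted p = 0.013). Its call was lost without AML library 2, where the log2 fold change was 1.42 (limma adjusted p = 0.11). Pcgf6 stood at 1.45 and 2.15 RPKM in AML libraries, against 0.54, 0.44 and 0.45 RPKM in normal libraries (limma adjusted p = 0.012), and passed the filter only through the AML libraries. Its call held in 2 of the 3 fits without 1 library that tested it, and was lost without normal library 2 (limma adjusted p = 0.052). Without AML library 1 or AML library 2 it fell under the filter and was not tested. The catalytic RING genes did not pass, Ring1 with limma adjusted p = 0.12 and Rnf2 with 0.082. In fits without 1 library Rnf2 lay between -1.19 and -0.58 and passed only in the fit without normal library 3 (-1.11, limma adjusted p = 0.013), with limma adjusted p up to 0.41 in the others.

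Rybp and Yaf2, paralogues that take the place of CBX proteins in variant PRC1, moved in opposite directions. Rybp stood at 16.6 and 11.7 RPKM in AML libraries, against 29.0, 29.8 and 22.3 RPKM in normal libraries (log2 fold change -0.90, SE 0.26, limma adjusted p = 0.038). Yaf2 stood at 38.44 and 41.43 RPKM in AML libraries, against 18.35, 22.31 and 25.14 RPKM in normal libraries (log2 fold change 0.85, SE 0.23, limma adjusted p = 0.034). Their ratio, Yaf2 over Rybp, was 2.32 and 3.54 in AML libraries, against 0.633, 0.749 and 1.13 in normal libraries, a description made after the values were seen. Each of these 2 calls held in 1 of 5 fits that leave out a library, with limma adjusted p up to 0.24 for Rybp and 0.18 for Yaf2. Kdm2b, the CpG-binding subunit of variant PRC1, averaged 6.61 ± 0.933 RPKM (SD, n = 2) in AML cells and 3.07 ± 1.13 RPKM (SD, n = 3) in normal cells, close to the threshold (limma adjusted p = 0.049). Its call was lost without normal library 2 or either AML library (limma adjusted p up to 0.19).

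Among the CBX, PHC and SCM genes Phc1, a polyhomeotic subunit of canonical PRC1, was lower. Phc1 stood at 0.8 and 0.9 RPKM in AML libraries, against 3.6, 2.8 and 2.8 RPKM in normal libraries. It passed the filter only through the normal libraries and was 3.61-fold lower (log2 fold change -1.13, SE 0.20, limma adjusted p = 0.0071). That call was lost without either AML library (limma adjusted p up to 0.064).

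Around BAP1, the glycosyltransferase gene Ogt was lower and Mbd6 higher in AML cells. Ogt averaged 38.4 ± 14.7 RPKM (SD, n = 2) in AML cells and 77.9 ± 9.83 RPKM (SD, n = 3) in normal cells (limma adjusted p = 0.038). Mbd6, which binds the deubiquitinase complex, averaged 105 ± 28.8 RPKM (SD, n = 2) in AML cells and 43.0 ± 19.7 RPKM (SD, n = 3) in normal cells (limma adjusted p = 0.040). Asxl3 did not exceed 0.01 RPKM in any library. Of 12 genes of the demethylase and MLL3/MLL4 list Dpy30 and Ash2l, shared subunits of H3 lysine 4 methyltransferases, were higher. Kdm6b was the 1 gene of that list that was lower, where 19.3% of all tested genes were higher and 11.8% lower. Dpy30 stood at 51.32 and 62.21 RPKM in AML libraries, against 20.43, 25.02 and 24.25 RPKM in normal libraries (log2 fold change 1.25, SE 0.23, limma adjusted p = 0.0084), a call lost without AML library 2 (limma adjusted p = 0.080). Ash2l averaged 18.4 ± 4.48 RPKM (SD, n = 2) in AML cells and 9.80 ± 1.86 RPKM (SD, n = 3) in normal cells, at the threshold itself (limma adjusted p = 0.050), and its call held in none of the fits that leave out a library. Among 8 acetyltransferase and other H3K27-linked genes Whsc1l1 alone passed and was lower, where 11.8% of all tested genes were lower. This H3 lysine 36 methyltransferase gene, now named Nsd3, averaged 7.3 ± 2.97 RPKM (SD, n = 2) in AML cells and 17.4 ± 5.09 RPKM (SD, n = 3) in normal cells (limma adjusted p = 0.044). The calls of Ogt, Mbd6 and Whsc1l1 were lost in at least 3 of the 5 fits without 1 library, with limma adjusted p up to 0.28.

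**Figure D4:**
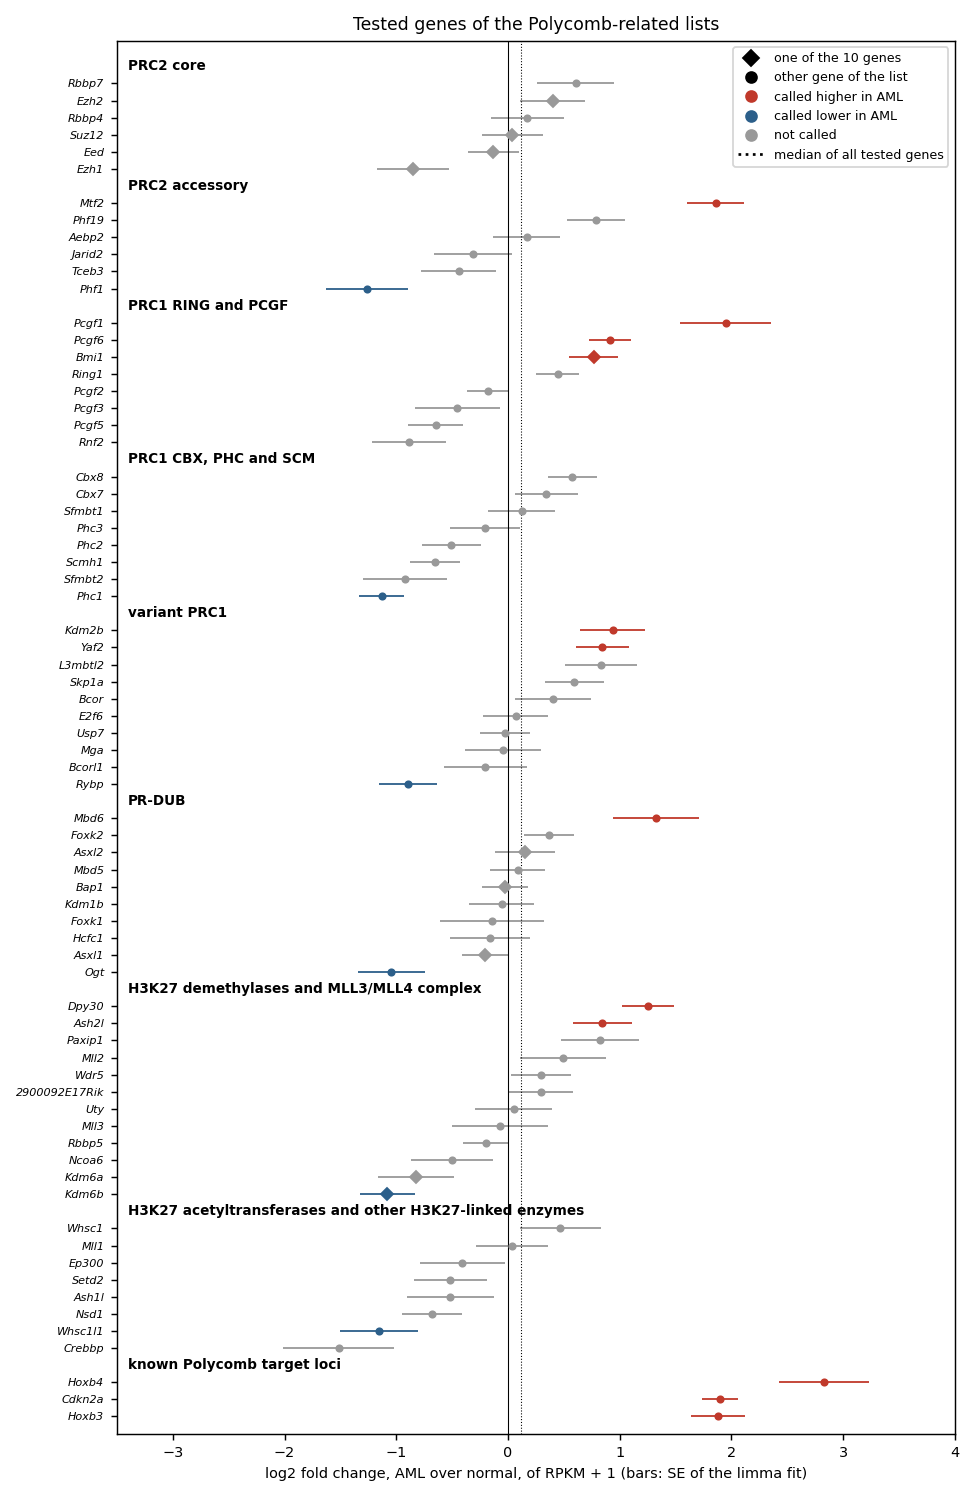
Log2 fold change of AML over normal on the log2(RPKM + 1) scale, with the SE of the limma fit, for tested genes of the lists; diamonds are the 10 genes, red and blue mark calls, and the dotted line is the median of all tested genes (0.12). Calls are scattered over the lists, with Pcgf1, Mtf2 and Mbd6 farthest to the right among the machinery and Phf1, Whsc1l1 and Phc1 farthest to the left among called genes.

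Of 16 genes known as Polycomb targets in other settings, 13 were under the filter on low values. Hoxa5 was listed at 0 in all 5 libraries, and Hoxa7, Hoxa9 and Hoxa10 were listed at 0 in both AML libraries and at no more than 0.18 RPKM in normal ones. Hoxb4, a homeobox gene of haematopoietic stem cells, stood at 15.59 and 33.36 RPKM in AML libraries, against 1.78, 1.80 and 3.87 RPKM in normal libraries, 9.86-fold higher (log2 fold change 2.83, SE 0.40, limma adjusted p = 0.0033). Its neighbour Hoxb3 stood at 3.65 and 5.60 RPKM in AML libraries, against 0.48, 0.31 and 0.76 RPKM in normal libraries (log2 fold change 1.88, SE 0.24, limma adjusted p = 0.0022). Cdkn2a, which encodes the cell cycle inhibitors INK4A and ARF and is repressed by BMI1 in other settings, was listed at 2.73 and 2.72 RPKM in AML libraries and at 0 in all 3 normal libraries (limma adjusted p = 0.00052). INK4A and ARF transcripts share 1 value in the table. Hoxb3 and Cdkn2a passed the filter only through the AML libraries, so that a count over this list is no support for a rise of targets as a group. Cdkn2b, the neighbour of Cdkn2a, was listed at 0.94 and 1.03 RPKM in AML libraries and at 0.28, 0.21 and 0.15 RPKM in normal libraries, under the filter. No histone mark was measured in these libraries.

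**Figure D5:**
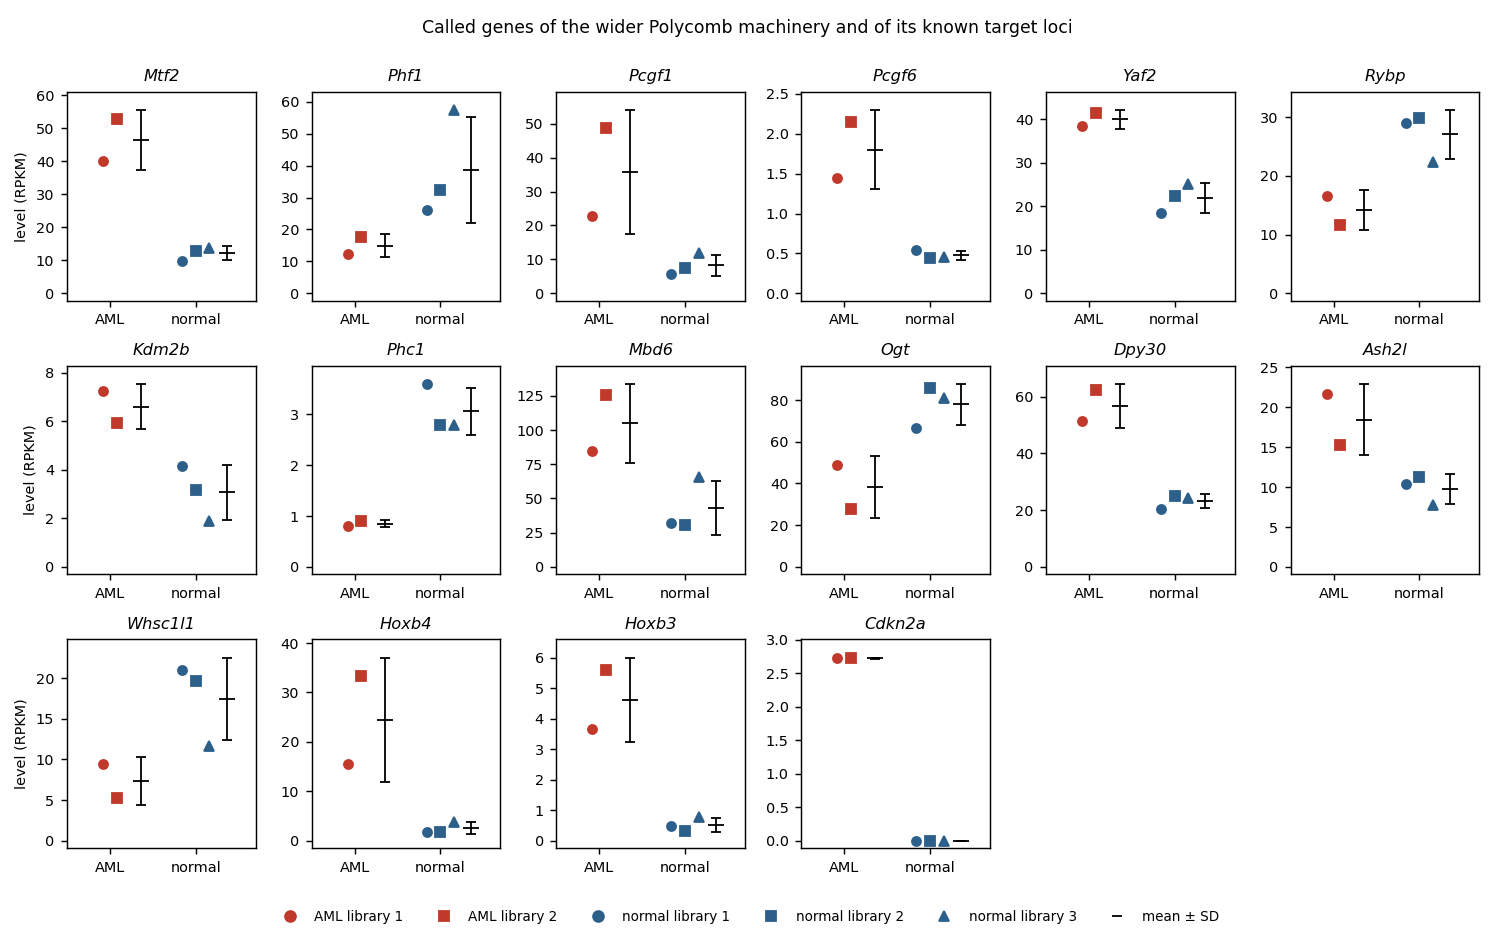
Level in RPKM (vertical axis, its scale set per gene) of called genes of the wider lists in 2 AML and 3 normal libraries; points are libraries and bars the mean ± SD. The groups do not overlap for Mtf2 (40.14 and 52.88 RPKM in AML libraries, at most 13.79 RPKM in normal ones), for Hoxb4 or for Cdkn2a, which is listed at 0 in all normal libraries.

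The libraries as a whole bear on these values as follows. Of all calls, 1959 were in the higher and 1196 in the lower direction (62.1% higher), and the genes S100a8 and S100a9 took 20.8% and 30.1% of the RPKM total in AML libraries against 28.1% to 37.0% in normal libraries. Scaling to totals without these 2 genes moved the median log2 fold change of all genes from 0.12 to -0.11 and the share of higher calls to 47.8%, and removing the exon length trend gave 48.3%. Under the first of these Bmi1 was at 0.56 (limma adjusted p = 0.12) and Kdm6b at -1.32 (still past the threshold). Correlations of log2(RPKM + 1) were at least 0.924 within a group and at most 0.857 between groups. Of the genes of the sorting antigens, Itgam, Ly6g and Ptprc were lower in AML cells and Ly6c1 and Ly6c2 did not pass, and all 5 stood at 71.7 RPKM or more in every library. Of 6 B cell markers the 3 tested did not pass and the other 3 were under the filter. Sums over all 6 were 10.1 and 12.2 RPKM in AML libraries against 10.9 to 16.9 RPKM in normal libraries. Of 4 tested T and NK cell markers 3 were higher and 1 was lower, against 19.3% and 11.8% of all tested genes. Among these 3, Cd3e passed the filter only through the AML libraries. Under the filter were Cd4 and Cd8a, at no more than 0.1 RPKM in AML libraries, and Klrb1c, at no more than 0.69 RPKM.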

How the data were processed

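Total RNA of sorted cells was made into libraries with a TruSeq RNA kit, per the labels. The deposited table, taken to hold RPKM made by the authors, gives 34240 features in 5 libraries. No label or header names the unit. It was inferred from the products of value and exon length in kb, whose sum was nearly constant (1052560 to 1118080 per library), as RPKM requires. The submitters' processing notes give mm9, and the sources used here name no aligner, counter or annotation. Low values of genes with a single exon gave whole reads for at most 74.4% of 160 values (normal library 1, 29.8% by chance, within 0.02 reads beyond rounding), so reads were not recovered and counting error is unknown. Values had 2 decimals for Ezh2 and Bmi1 and 1 decimal for the other 8 genes. Over tested genes, 94.5% of those with 2 decimals and 11.9% of those with 1 were higher in AML cells.

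Genes reaching 1 RPKM in 2 or more libraries were compared as log2(RPKM + 1) with limma 3.58.1 in R 4.3.3 (variance trend, robust, two-sided), after the fit was tested on simulated data. Ratios used exact permutation in SciPy 1.17.1. Coordinates are from GENCODE M1 on mm9 and upstream sequences from RefSeq on GRCm38.p6, with 9 of 10 genes matched. Of 157 list entries 156 were matched, by symbol or RefSeq synonym. The 10 genes and all lists were chosen with earlier results of these data known. Besides the 10 genes, those named were the 2 called genes with the largest change in each list (the highest-level gene where none was called), the nearest profiles, the sorting antigens, and Uty, Xist and Ddx3y. The values of 1 gene that this rule names are not reported here. Other names, such as Yaf2, Ring1, Rnf2, Asxl3, Cdkn2b, subunits and markers in small counts, and Hox genes at or near 0, were chosen after their values were seen. Alternatives were other scalings, filters, pseudocount, variance model, rounding and leaving out each library. Removal of an exon length trend and normal library 3 alone for its group were added after seeing the data.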

Additional observations from a re-analysis of the deposited data

How the results depend on the processing

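No paired analysis was possible because the labels give no shared replicate numbers that tie an AML library to a normal one. Of 150 values of the 10 genes over 15 alternatives, 122 kept their direction and their side of the threshold. With 1 library left out, limma called 326 to 2757 genes higher and 348 to 2142 lower in AML cells, and 0 to 1 of the 10 genes higher and 0 to 3 lower. Scaling to totals without S100a8 and S100a9 gave 1252 higher genes, and no member was then called higher, as with upper quartile scaling and with no filter (0 each). Called lower were 3 members under quantile normalization and 2 with the exon length trend removed. In these settings 14.1% and 16.8% of all tested genes were lower. With normal library 3 alone for its group, assumed to vary like AML libraries, there were 864 higher and 471 lower genes and 0 called members in either direction.

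Signs near 0 turned as follows, with the cause not tested. Suz12 was at -0.057 under upper quartile scaling, -0.059 under quantile normalization, -0.20 under totals without S100a8 and S100a9, and between -0.20 and 0.28 with 1 library left out. Asxl2 was at -0.071 under those totals and between -0.050 and 0.36 with 1 library left out. Rbbp4 was at -0.075 under those totals and between -0.15 and 0.49 with 1 library left out. Uty was at -0.021 under upper quartile scaling, -0.14 under those totals and between -0.28 and 0.24 with 1 library left out. Eed was at 0.047 with normal library 3 alone. Bap1 lay between -0.087 and 0.038 with 1 library left out. The log2 difference of the Kdm6b to Kdm6a ratio lay between -0.47 and 0.13 with 1 library left out. Depth is unknown, so low levels such as those of Pcgf6 and Phc1 carry a counting error that could not be given.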
